A study of Macaca mulatta with 7 samples.

Results

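A set of 35 genes that are used when a cell copies its DNA and divides was followed through the nuclei of rhesus monkey (Macaca mulatta) spinal cord. The genes were taken by symbol from the 28966 symbols of the deposited tables. Of these, 16 act mainly in the DNA synthesis (S) phase and 19 in G2 phase and mitosis (G2/M), and all 35 had unique molecular identifiers (UMIs, the counted RNA molecules). Single-nucleus RNA-seq was carried out on 7 libraries with 1 library in each group. The intact groups were cervical, thoracic and lumbar cord of 1 uninjured adult female at an age of 5 years. The injured groups were lumbar cord from 7, 14 or 30 days (written dpi, for days post injury) and 6 months (mpi) after surgery, in adult females aged 7, 7, 6 and 6 years. In these animals the thoracic cord had been cut through and a piece of it removed, and the lumbar tissue lay away from that lesion. Time after injury, animal, age and library preparation therefore cannot be told apart, and no test between groups was possible. Single nuclei hold the RNA of the nucleus and little of that of the cytoplasm. Each interval below covers counting error only.

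A dividing cell passes through ordered phases. E2F transcription factors switch on the genes of DNA replication as a cell enters S phase, and the MYBL2 and FOXM1 factors, bound with the MuvB complex, switch on the mitotic genes later. The minichromosome maintenance proteins (MCM2 to MCM7) form the helicase that opens DNA, while cyclins with the kinase CDK1 drive entry into mitosis. In the adult cord most neurons are held to be post-mitotic. Oligodendrocyte precursor cells (OPCs) keep a slow turnover, and microglia, the resident macrophages, are known to multiply after injury.

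The bases upstream of the genes are shown first, because the members are known as groups with shared promoter elements. For each gene the 250 bases before the annotated start were read from the RefSeq sequences of the Mmul_10 assembly. The letters searched on both strands were those of the cell cycle homology region (CHR, TTTGAA or TTCGAA), the CCAAT box (CCAAT) and an E2F motif (TTGGCGC or TTCCCGC). CHR letters stood before 9 of 19 G2/M members (47.4%) and 1 of 16 S-phase members (6.25%), against 13.7% of the 20782 promoters listed. A CHR together with a CCAAT box stood before 8 of the 19 G2/M members (42.1%) and 0 of the 16 S-phase members, against 4.93% of all promoters. E2F letters stood before 6 of the 16 S-phase members (37.5%) and 2 of the 19 G2/M members (10.5%), against 8.10% of all promoters. CCAAT boxes alone separated the groups less, with 63.2% of G2/M members, 56.2% of S-phase members and 31.0% of all promoters. In further cell cycle genes outside the set, 36 of the S phase and 52 of G2/M, CHR letters stood before 8.33% and 34.6%, E2F letters before 19.4% and 17.3% and CCAAT boxes before 36.1% and 55.8%, so that the E2F letters did not separate the phases there. The S-phase genes DTL and POLA1 and the G2/M genes MKI67 and TOP2A, whose levels are followed below, show both kinds of window. Each line is written 5′ to 3′ on the strand of the gene, capitals mark the matched letters in either orientation, and the windows lie at chr1:69530024-69530273 (plus strand), chrX:24524764-24525013 (plus), chr9:128554145-128554394 (minus) and chr16:51571946-51572195 (minus).
DTL: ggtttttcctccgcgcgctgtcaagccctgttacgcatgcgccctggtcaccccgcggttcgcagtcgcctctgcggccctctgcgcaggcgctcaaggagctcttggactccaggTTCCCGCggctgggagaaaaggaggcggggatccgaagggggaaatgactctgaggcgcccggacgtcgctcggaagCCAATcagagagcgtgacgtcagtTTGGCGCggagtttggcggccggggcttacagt
POLA1: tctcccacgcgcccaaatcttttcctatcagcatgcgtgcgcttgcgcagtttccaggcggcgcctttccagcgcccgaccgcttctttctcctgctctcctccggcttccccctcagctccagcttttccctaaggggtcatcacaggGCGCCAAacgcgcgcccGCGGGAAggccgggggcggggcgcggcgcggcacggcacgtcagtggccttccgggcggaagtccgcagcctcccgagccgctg
MKI67: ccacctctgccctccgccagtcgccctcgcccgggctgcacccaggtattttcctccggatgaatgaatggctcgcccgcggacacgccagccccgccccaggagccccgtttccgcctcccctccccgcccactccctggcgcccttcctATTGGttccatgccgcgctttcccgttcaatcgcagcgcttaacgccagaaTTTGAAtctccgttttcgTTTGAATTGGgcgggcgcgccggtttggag
TOP2A: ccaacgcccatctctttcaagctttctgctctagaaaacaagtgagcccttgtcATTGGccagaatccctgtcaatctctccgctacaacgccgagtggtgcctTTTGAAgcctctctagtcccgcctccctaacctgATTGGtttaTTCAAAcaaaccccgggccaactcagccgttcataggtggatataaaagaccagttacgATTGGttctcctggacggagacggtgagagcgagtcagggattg
In the DTL window the E2F letters begin 134 and 33 bases before the start, and in that of POLA1 101 and 84 bases before it. In the MKI67 window the CHR letters lie 48 and 30 bases before the start, and the nearer one shares a base with a CCAAT box in reverse orientation. A match describes letters in this window and does not show that a factor binds there.

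The files held 69332 barcodes with 777183139 UMIs, and 63730 nuclei (91.9%) were kept, with a median of 3191 to 7355 UMIs per library. Cell types were rebuilt from marker genes in 44 clusters, with 125 cell cycle genes left out of the clustering, and are called "-like". The microglia/macrophage-like class held 1654, 2521 and 2084 nuclei in intact cervical, thoracic and lumbar cord and 3471, 4674, 3874 and 2347 at 7, 14 and 30 dpi and 6 mpi. All 10 of its markers had UMIs at 7 dpi, with a summed level of 9235 CPM against 9550 to 9584 in intact cord, where CPM are counts of a gene per 1000000 UMIs of the class in that library. Its clusters followed the libraries. A cluster led by MRC1, INPP5D and CX3CR1 held most of the class in the 3 intact libraries, and at 7 dpi 3051 of 3471 nuclei (87.9%) lay in a cluster led by CD74. At 14 dpi most of the class lay in a cluster led by SRGN and TNF, at 30 dpi in clusters led by PMAIP1 and by ITGAX, and at 6 mpi in clusters led by GPNMB and by LILRB1. Among markers of other cells in the class, the endothelial list stood apart at 7 dpi, where it summed to 1526 CPM against 813 to 861 CPM in the other 6 libraries. VWF made up 1390 of the 1526 CPM, and CLDN5, ERG and EMCN were each at or below 0.84 CPM in every library. Its part in the results below was not tested. Between 12 and 36 barcodes were shared by a pair of libraries.

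In microglia/macrophage-like nuclei the G2/M members stood far above intact cord at 7 dpi. A member was called higher where it reached 2-fold of intact lumbar cord on CPM with 1 added and lay above all 3 intact libraries. By this rule 28 of 35 members were higher at 7 dpi and 0 lower, where 7.24% of all 16886 symbols tested were called higher and 4.74% lower. The called members were 18 of 19 G2/M genes and 10 of 16 S-phase genes. The median log2 ratio was 4.19 over the G2/M members, 1.33 over the S-phase members and 0.03 over all symbols. Summed over the 19 genes, G2/M members stood at 90.4, 106 and 82.8 CPM in intact cervical, thoracic and lumbar cord and at 1001 CPM at 7 dpi, a log2 ratio to intact lumbar cord of 3.59 (95% interval 3.48 to 3.71). The 16 S-phase members summed to 235, 258 and 225 CPM in intact cord and 700 CPM at 7 dpi, a log2 ratio of 1.64 (1.56 to 1.71). Under the first rule tried for naming clusters, replaced after the clusters had been seen because it left the one with most of these nuclei unnamed, the ratios were 5.84 for G2/M and 3.38 for S-phase members. That cluster held 3051 of the 3471 nuclei at 7 dpi, so these ratios cover a small part of them.

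**Figure D1:**
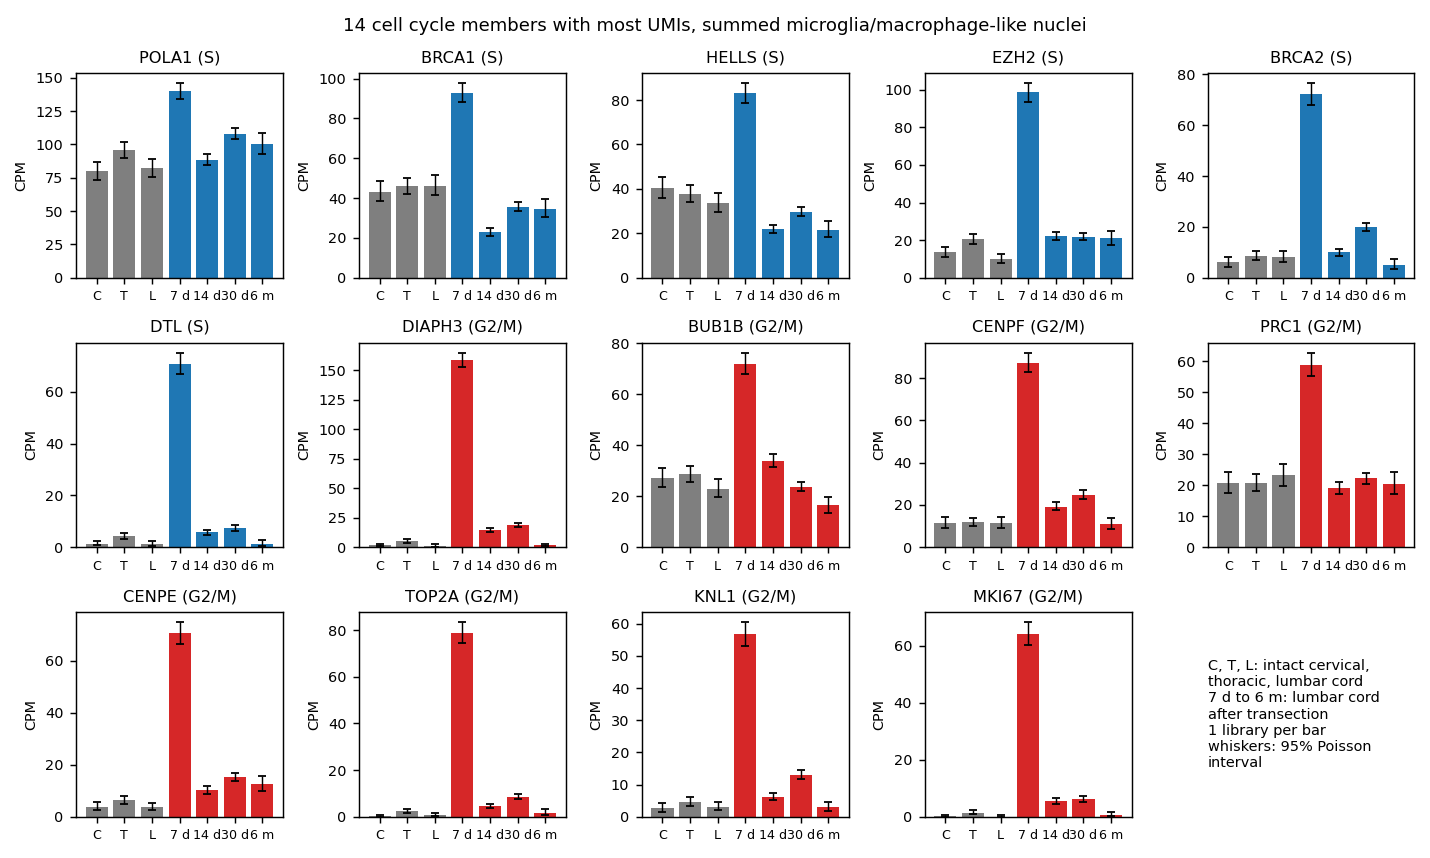
Levels in microglia/macrophage-like nuclei of the 6 S-phase (blue) and 8 G2/M (red) members with the most UMIs, in CPM, with 1 bar per library (grey for intact cord) and whiskers for the exact 95% Poisson interval. The 7 dpi bar is above all 3 intact bars in each panel, and the bars for 14 dpi, 30 dpi and 6 mpi are lower than it in each panel.

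Among genes of the mitotic chromosome, MKI67, which coats chromosomes in mitosis, was at 0.140, 1.44 and 0 CPM in intact cervical, thoracic and lumbar cord, 64.3 CPM at 7 dpi and 5.42, 6.19 and 0.760 CPM at 14 dpi, 30 dpi and 6 mpi. TOP2A, the topoisomerase that untangles DNA, was at 0.140, 2.42 and 0.682 CPM in intact cord, then 78.9, 4.61, 8.67 and 1.82 CPM. For both genes 7 dpi stood apart from all other libraries, 14 and 30 dpi lay above intact cord, and 6 mpi lay within the range of the intact segments. Against the 0 UMIs of MKI67 in intact lumbar cord, 7 dpi was at least 157-fold higher with a floor of 3 UMIs per library, and the log2 ratio of TOP2A was 6.85 (5.63 to 8.48) from 5 and 1234 UMIs. NCAPG, a condensin subunit, went from 9 to 641 UMIs in the same comparison.

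The kinetochore and checkpoint genes hold chromosomes on the spindle until all are attached. CENPF was at 11.3, 11.9 and 11.5 CPM in intact cervical, thoracic and lumbar cord, 87.4 CPM at 7 dpi and 19.2, 24.9 and 10.8 CPM afterwards. CENPE, the motor of the kinetochore, was at 3.92, 6.46 and 3.69 CPM and then 70.5, 10.2, 15.2 and 12.6 CPM. KNL1, the scaffold on which the checkpoint assembles, was at 2.66, 4.58 and 3.14 CPM and then 56.7, 6.13, 13 and 2.89 CPM. Levels of the 3 genes were highest at 7 dpi and next highest at 30 dpi, and CENPE alone of them was also above all intact libraries at 6 mpi. Their log2 ratios at 7 dpi were 2.93 (2.61 to 3.27) for CENPF, 4.26 (3.71 to 4.87) for CENPE and 4.17 (3.58 to 4.84) for KNL1. BUB1B, the BubR1 checkpoint protein, was at 27.1, 28.6 and 22.9 CPM in the intact libraries and at 72.0, 33.9, 23.8 and 16.4 CPM after injury. Its log2 ratio at 7 dpi was 1.65 (1.42 to 1.89), against 6.40 (4.85 to 8.69) for the checkpoint kinase BUB1, which went from 3 to 542 UMIs.

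Genes of the spindle and of cell separation differed widely in their ratios. DIAPH3, a formin that builds actin filaments, was at 1.82, 5.21 and 1.23 CPM in intact cord, 159 CPM at 7 dpi and 14.7, 18.9 and 1.67 CPM at the later times. PRC1, which bundles microtubules of the central spindle, was at 20.7, 20.8 and 23.2 CPM and then 58.9, 19, 22.2 and 20.5 CPM. DIAPH3 thus had a log2 ratio of 7.01 (6.08 to 8.14) at 7 dpi and also lay above intact cord at 14 and 30 dpi. PRC1 had one of 1.34 (1.11 to 1.59) and was within or below the intact range at every later time. The spindle motors KIF11 and KIF14 and the spindle proteins ASPM, NUSAP1, TPX2 and HMMR lay between them, from 2.5 (HMMR) to 6.38 (KIF11) on the log2 scale.

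The cyclins did not move alike. CCNB1, the mitotic cyclin that pairs with CDK1, went from 3 UMIs in intact lumbar cord to 231 UMIs at 7 dpi, or 5.17 (3.61 to 7.46) on the log2 scale, and CDK1 itself from 0 to 278 UMIs, at least 43.4-fold higher. CCNA2, the cyclin of S and G2 phase, was at 5.60, 8.35 and 6.01 CPM in intact cord and 10.3, 3.90, 5.00 and 10.8 CPM at 7 dpi, 14 dpi, 30 dpi and 6 mpi. It was the one G2/M member not called at 7 dpi, with a log2 ratio of 0.78 (0.29 to 1.29). CCNE2, a cyclin of the entry into S phase, went from 11 to 142 UMIs, a log2 ratio of 2.60 (1.71 to 3.63).

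The ratios of the S-phase members ran from 0.37 (MCM5) to 7.77 (RRM2) on the log2 scale at 7 dpi. RRM2, the inducible subunit of ribonucleotide reductase, which makes DNA building blocks, had 1 UMI in intact lumbar cord and 465 at 7 dpi, a log2 ratio of 7.77 (5.28 to 13.07). DTL, which targets replication proteins for destruction, was at 1.40, 4.22 and 1.23 CPM in intact cord, 70.8 CPM at 7 dpi and 5.70, 7.29 and 1.37 CPM later. Its log2 ratio was 5.85 (4.92 to 6.98), and the factor MYBL2 was near it at 6.19 (3.69 to 11.51), from 1 and 156 UMIs. EZH2, the methyltransferase of the Polycomb repressive complex, was at 13.4, 20.4 and 9.83 CPM in intact cord and 98.6, 22.0, 21.8 and 21.0 CPM after injury. BRCA2, which acts in the repair of DNA breaks, was at 6.02, 8.62 and 8.05 CPM and then 72.3, 9.98, 19.9 and 5.17 CPM. EZH2 was above all 3 intact libraries at each time after injury, while BRCA2 was above them at 7, 14 and 30 dpi and below them at 6 mpi. The log2 ratios at 7 dpi were 3.33 (2.99 to 3.69) for EZH2 and 3.17 (2.79 to 3.57) for BRCA2.

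Other S-phase members had many UMIs in intact cord and changed less. POLA1, the catalytic subunit of the polymerase that starts DNA strands, was at 79.8, 95.6 and 82.3 CPM in intact cord and 140, 88.4, 108 and 101 CPM after injury. BRCA1, a DNA repair protein, was at 43.2, 46.0 and 46.3 CPM and then 92.9, 23.0, 35.6 and 34.6 CPM. HELLS, a chromatin remodeller of replicating DNA, was at 40.4, 37.8 and 33.8 CPM and then 83.0, 21.9, 29.7 and 21.6 CPM. The 3 genes were highest at 7 dpi, and at the 3 later times BRCA1 and HELLS lay below every intact library. Their log2 ratios at 7 dpi were 0.77 (0.64 to 0.90), 1.01 (0.83 to 1.18) and 1.29 (1.10 to 1.5). POLA1 and BRCA1 were therefore above all intact libraries but not called, BRCA1 because the added 1 CPM put it just under 2-fold.

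The MCM helicase subunits, which act as 1 complex of 6 proteins, did not share 1 ratio. MCM4 was highest with a log2 ratio of 1.99 (1.5 to 2.52), followed by MCM6 at 1.49 (1.12 to 1.88) and MCM3 at 1.35 (0.90 to 1.83), and these 3 were called. MCM2 at 0.75 (0.11 to 1.43), MCM7 at 0.41 (0.02 to 0.81) and MCM5 at 0.37 (-0.14 to 0.90) were not called. MCM5 was at 9.94, 5.75 and 6.01 CPM in intact cord and 7.74 CPM at 7 dpi, within the intact range, and it was the only one of the 35 members not above all 3 intact libraries there. The other 34 of 35 members lay above all 3, as did 39.0% of all symbols. E2F1, with 47 UMIs at 7 dpi and 9 in intact lumbar cord, was the last of the 7 members not called, at a log2 ratio of 1.29 (0.25 to 2.51).

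**Figure D2:**
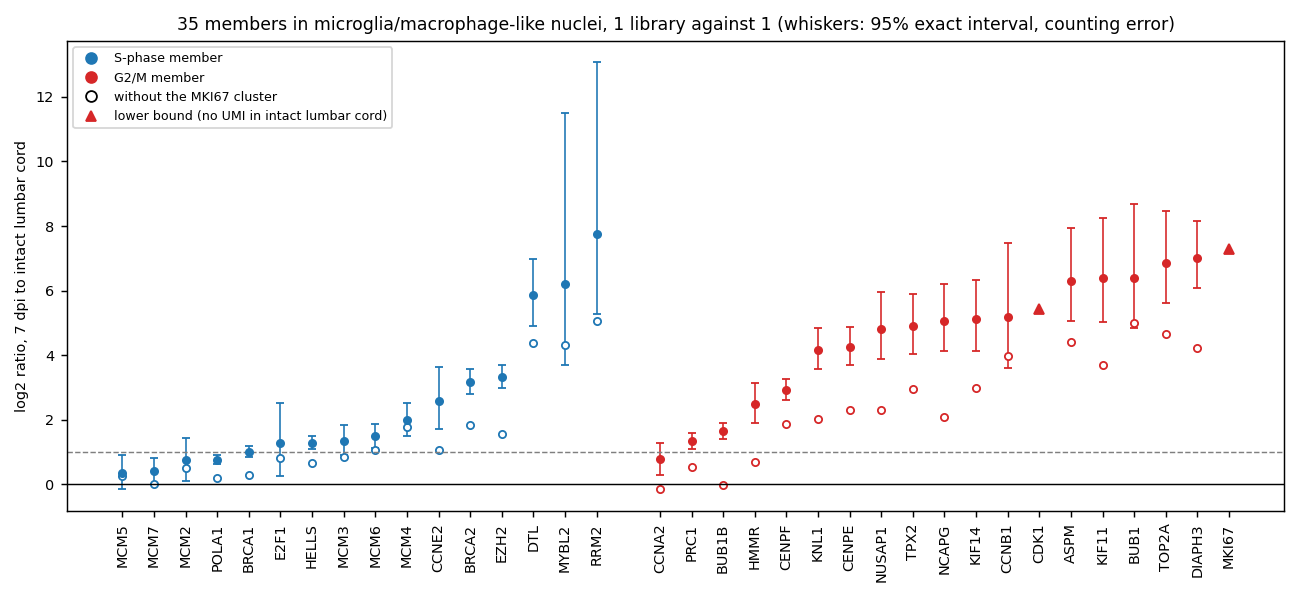
Log2 ratio of 7 dpi to intact lumbar cord for each of the 35 members in microglia/macrophage-like nuclei (filled, with exact 95% intervals for counting error; triangles are lower bounds where intact lumbar cord had no UMI), ordered within S-phase (blue) and G2/M (red) members, and the same without the cluster led by MKI67 (open). Filled ratios run from 0.37 (MCM5) to 7.77 (RRM2), the dashed line marks 2-fold, and open circles lie below the filled ones.

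The members were also split by their highest level in the 3 intact libraries, one of which, lumbar cord, is the denominator of the ratio. Of 15 members whose highest intact level was under 2.5 CPM, 14 were called at 7 dpi, E2F1 being the exception. Of 11 members at 2.5 to 10 CPM, 8 were called, and of 9 members at 10 CPM or more, 6 were called, against the 7.24% of all symbols. That share spans symbols of every level, and none was taken for symbols of a like level. On the log2 scale the groups overlapped, from 1.29 (E2F1) to 7.77 (RRM2) in the first, from 0.37 (MCM5) to 7.01 (DIAPH3) in the second and from 0.41 (MCM7) to 3.33 (EZH2) in the last. This split is by counted UMIs and not by expression per transcript length.

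In the animals of the later times fewer members were called. At 14 dpi 13 members were called higher (4.71% of all symbols), namely RRM2, DTL and EZH2 of the S phase and 10 G2/M genes, and 0 were called lower (3.69%). At 30 dpi 18 members were called (6.58% of all symbols), 4 of the S phase and 14 of G2/M, and 0 lower (5.18%). At 6 mpi the 4 called members were EZH2, CENPE, ASPM and BUB1, where 12.6% of all symbols were called, and 0 were lower (3.88%). A count of 4 of 35 is near that background. Summed G2/M members stood at 153, 184 and 98.6 CPM at 14 dpi, 30 dpi and 6 mpi, with log2 ratios to intact lumbar cord of 0.89 (0.76 to 1.01), 1.15 (1.03 to 1.28) and 0.25 (0.09 to 0.41). The sum at 6 mpi lay between those of intact cervical and thoracic cord. Summed S-phase members were at 208, 269 and 233 CPM. Against intact lumbar cord this was -0.12 (-0.20 to -0.03), 0.26 (0.18 to 0.33) and 0.05 (-0.05 to 0.15) on the log2 scale. Several members were below intact cord. At 14 dpi 22 of the 35 lay above all 3 intact libraries and 10 below them, where 29.9% and 39.6% of all symbols did. Of the 10, 7 were among the 16 S-phase genes. At 30 dpi 24 lay above and 7 below (31.5% and 39.8% of all symbols), and 6 of the 7 were S-phase genes. The shares of S-phase genes below intact cord at 14 and 30 dpi were thus near those of all symbols. At 6 mpi 13 lay above and 11 below (51.4% and 25.0%).

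Counts per nucleus showed how many nuclei carried these UMIs. Each nucleus was thinned to 1000 UMIs, which left out 0 nuclei, and the share with UMIs of 2 or more of the 35 members was taken. In microglia/macrophage-like nuclei it was 3.26%, 3.41% and 3.41% in the cervical, thoracic and lumbar intact libraries, 16.7% (578 of 3471; 95% exact interval 15.4 to 17.9) at 7 dpi and 3.44%, 4.34% and 3.62% at the later times. Only the 7 dpi interval lay apart from those of the intact libraries. Under the first naming rule the 7 dpi share was 60.6%. That rule leaves the cluster with 3051 of the 3471 nuclei unnamed, so its share covers a small part of them. Neuron-like nuclei, taken as a class that does not divide, gave 1.83% to 2.76% over the 7 libraries. Unthinned, the microglial shares were 27.1%, 26.9%, 19.96%, 36.0%, 23.1%, 39.8% and 15.2%, and those of neuron-like nuclei 82.9% to 94.4%, with median depths of 2408 to 5814 and 21405 to 39103 UMIs. With 3 or more members, which neuron-like nuclei reached in at most 0.251%, microglial shares were 0.242%, 0.516%, 0.288%, 11.8%, 0.984%, 1.26% and 0.426%. By this stricter count 30 dpi (49 of 3874; 0.937 to 1.67) also lay above the intact libraries, while the interval of 14 dpi (46 of 4674; 0.721 to 1.31) overlapped that of intact thoracic cord (0.275 to 0.880). The share with exactly 1 member was lowest at 7 dpi, at 17.3% against 19% to 23.6% elsewhere.

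**Figure D3:**
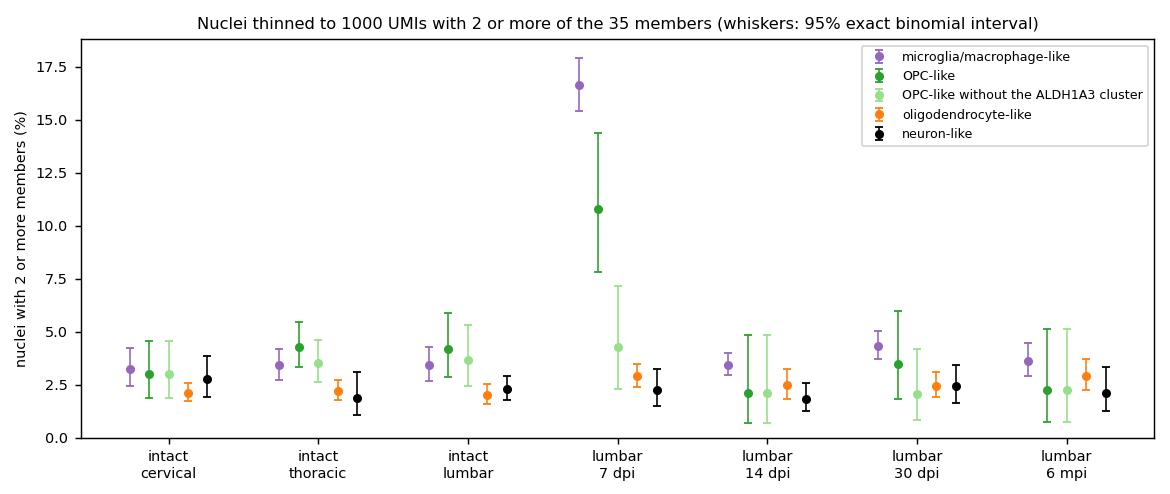
Percent of nuclei with UMIs of 2 or more of the 35 members after thinning to 1000 UMIs, by library, for 4 classes and for OPC-like nuclei without the cluster led by ALDH1A3, with exact 95% binomial intervals. Microglia/macrophage-like nuclei stand at 16.7% at 7 dpi and at 3.26% to 4.34% elsewhere, and neuron-like nuclei at 1.83% to 2.76%.

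Of the 578 nuclei at 7 dpi, 357 held UMIs of both phases, 135 of S-phase members only and 86 of G2/M members only. Their median was 5467 UMIs before thinning, against 4055.5 UMIs in nuclei with 0 members. All 10 microglia/macrophage markers had UMIs in them, summing to 7511 CPM against 9717 CPM in the rest of the class, and the T cell list summed to 9.1 against 12.8 CPM with CD3D and CD3G at 0 in both. The endothelial list was lower in them, at 1020 against 1667 CPM. The OPC list was higher, at 979 against 737 CPM, of which XYLT1 made up 609 and 426 CPM. VCAN was at 128 against 68.3 CPM and LHFPL3 at 31.9 against 21.5 CPM. PDGFRA was at 202 against 211 CPM and PTPRZ1 at 3.81 against 5.57 CPM. CSPG4 (0 and 0.08 CPM), OLIG2 and TNR were at or below 2.93 CPM in both. The part of the OPC list in the result was not tested. Across all classes of the 7 dpi library, 770 nuclei held 2 or more members, and microglia/macrophage-like nuclei made up 75.1% of them, against 22.0% to 24.6% of such nuclei in the intact libraries. The class itself made up 38.1% of all nuclei at 7 dpi and 18.0% to 22.9% in intact cord.

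Most of the excess UMIs lay in few nuclei. For each member, nuclei were chosen by UMIs of 2 or more of the other 34 members, so that the gene itself had no part in the choice. At 7 dpi this took 522 to 577 nuclei with 20.1% to 21.8% of the UMIs of the class. These nuclei held a median of 93.8% of the UMIs of a G2/M member and 66.6% of those of an S-phase member. KIF11 (97.9%), DIAPH3 (97.3%) and NCAPG (97.0%) were the most concentrated G2/M members, and CCNA2 (63.4%) and PRC1 (63.9%) the least. S-phase members ran from MCM5 (47.1%), MCM7 (52.4%), MCM4 (52.8%) and POLA1 (56.1%) to DTL (89.9%), RRM2 (94.2%) and MYBL2 (95.5%). In neuron-like nuclei of the same library the highest value was 7.41% (MCM5). There the chosen nuclei held only 1.17% to 2.34% of the class UMIs, so the values of the 2 classes rest on unlike bases. In intact cervical, thoracic and lumbar microglia/macrophage-like nuclei the medians were 2.33%, 9.84% and 3.66% for S-phase members and 2.5%, 36.4% and 0% for G2/M members, from few UMIs. At 14 dpi, 30 dpi and 6 mpi they were 18.0%, 22.6% and 8.70% for S-phase members and 54.3%, 56.5% and 12.5% for G2/M members. The chosen nuclei were fewer outside 7 dpi. They held 1.82% to 3.58% of the class UMIs in intact cord. At 14 dpi, 30 dpi and 6 mpi they held 2.84% to 4.31%, 3.60% to 4.83% and 2.28% to 3.61%. The percentages of different libraries therefore rest on unlike bases and do not rank how concentrated the members were.

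**Figure D4:**
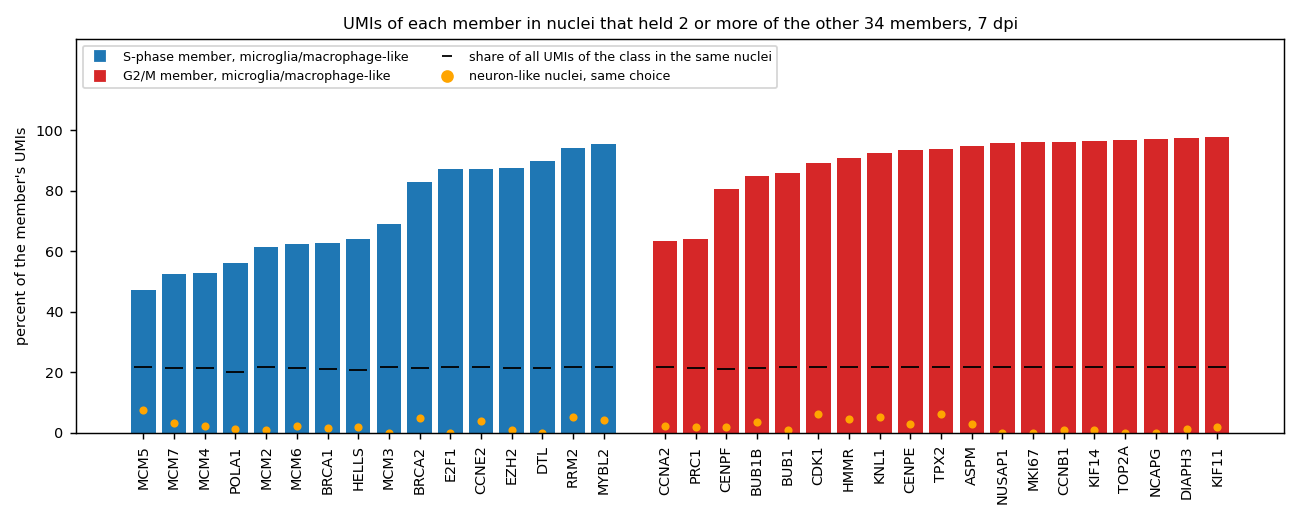
Percent of the UMIs of each member at 7 dpi that lay in microglia/macrophage-like nuclei with 2 or more of the other 34 members after thinning (bars, S phase blue, G2/M red), with the share of all class UMIs in the same nuclei (black lines, 20.1% to 21.8%) and the same choice in neuron-like nuclei (orange). The chosen neuron-like nuclei held 1.17% to 2.34% of the UMIs of their class. G2/M bars run from 63.4% (CCNA2) to 97.9% (KIF11) and S-phase bars from 47.1% (MCM5) to 95.5% (MYBL2).

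In the remaining nuclei of the class, those with fewer than 2 other members, the members were set against the same nuclei of intact lumbar cord. These nuclei were chosen for having few members, which lowers the levels in them. The interval of the log2 ratio lay above 0 for 13 members, below 0 for BUB1B and held 0 for 19, and the last 2, MKI67 and CDK1, had 40 and 30 UMIs against 0. Over all symbols, in nuclei with fewer than 2 members, the interval lay above 0 for 23.0% and below 0 for 23.5%. POLA1 was at 77.1 against 81.2 CPM, a log2 ratio of -0.08 (-0.23 to 0.07), BRCA1 at -0.08 (-0.28 to 0.13) and HELLS at 0.15 (-0.07 to 0.38). BUB1B was lower there, at 13.9 against 23.1 CPM and a log2 ratio of -0.73 (-1.05 to -0.42). The 13 members with an interval above 0 were RRM2, BUB1, DTL, ASPM, DIAPH3, TOP2A, MCM4, TPX2, BRCA2, CENPF, KNL1, EZH2 and CENPE. They ran from 0.70 (0.04 to 1.41) for CENPE to 3.97 (1.37 to 9.32) for RRM2, with BUB1 at 3.88 (2.27 to 6.18) and DTL at 3.01 (1.99 to 4.26).

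A cluster of 327 nuclei led by MKI67, MELK and TOP2A held much of the signal. The 35 members had no part in the clustering, but the cluster was picked here by its leading gene, a member. High levels of the members in it follow from that choice. G1 regulators such as E2F7 were not among the 125 genes left out of the clustering. The cluster took 272 nuclei (7.84% of the class) at 7 dpi, 5 in intact thoracic cord, 0 in intact cervical and lumbar cord, and 22, 27 and 1 at 14 dpi, 30 dpi and 6 mpi. Within it the G2/M members summed to 6237, 5979 and 6559 CPM at 7, 14 and 30 dpi, and the S-phase members to 3065, 3101 and 3153 CPM. The levels inside the cluster were close at the 3 times, from 22 and 27 nuclei at 14 and 30 dpi, while its share of the class was 7.84%, 0.47% and 0.70%. Without it, 21, 4, 3 and 3 members were called at 7, 14 and 30 dpi and 6 mpi, where 6.22%, 4.59%, 6.3% and 12.6% of all symbols were, and the summed log2 ratios at 7 dpi were 1.72 for G2/M and 0.72 for S-phase members. BUB1B and CCNA2 then changed sign, to -0.02 and -0.16. The share of nuclei with 2 or more members was 9.69% without it, and in the cluster led by CD74 it was 9.77% (298 of 3051).

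OPC-like nuclei gave a second rise at 7 dpi, and the summed levels rose only with 1 small cluster included. The class held 699, 1464 and 739 nuclei in intact cervical, thoracic and lumbar cord and 371, 238, 346 and 224 at 7, 14 and 30 dpi and 6 mpi. At 7 dpi 22 of the 34 members that passed the filter on low counts were called higher and 0 lower, where 8.54% and 3.49% of 14997 symbols were. E2F1 had too few UMIs to be tested. All 35 members lay above the 3 intact libraries, as did 44.5% of all symbols. Summed S-phase members were at 229, 278 and 247 CPM in intact cord and 594, 185, 294 and 181 CPM after injury, and G2/M members at 116, 169 and 135 CPM and then 382, 88.5, 208 and 87.4 CPM. The log2 ratios at 7 dpi were 1.26 (1.15 to 1.38) and 1.5 (1.35 to 1.64). The cluster, led by ALDH1A3, IGFBP3 and GLDC, held 66 nuclei at 7 dpi (17.8% of the class), 1, 12 and 4 in the cervical, thoracic and lumbar intact libraries, 7 at 30 dpi and 0 at 14 dpi and 6 mpi. Without it the sums at 7 dpi were 224 CPM for S-phase members, against 219 to 228 CPM in intact cord, and 118 CPM for G2/M members, against 116 to 127 CPM. Without the cluster, members within these sums lay on opposite sides of intact cord, as given below. DIAPH3, EZH2 and HELLS were below every intact library, and PRC1, POLA1, DTL, BRCA1 and BRCA2 were above them. The near-level sums therefore do not show that each member was unchanged. CENPF, KIF11 and MKI67 were then the 3 members called, from 16, 11 and 4 UMIs, where 5.86% of all symbols were. The first naming rule leaves this cluster unnamed, and with no doublet removal no cluster was led by ALDH1A3. In these settings the S-phase ratio was 0.034 and 0.048, and 3 members were called in each, where 5.86% and 5.97% of all symbols were.

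The nuclei of that cluster had fewer markers of the class than the other OPC-like nuclei of the 7 dpi library. The OPC list summed to 10649 against 21691 CPM, with PDGFRA, the growth factor receptor of OPCs, at 367 against 909 CPM. The astrocyte list summed to 2164 against 1267 CPM, with GFAP at 1447 against 435 CPM, and the Schwann cell list to 1241 against 508 CPM. Of its 66 nuclei 27 (40.9%) held 2 or more members after thinning, against 12 of 12 in intact thoracic and 4 of 4 in intact lumbar cord. At 30 dpi 5 of 7 did, and in intact cervical cord 0 of 1. Members summed to 9034 and 6412 CPM in intact thoracic and lumbar cord, 2910 CPM at 7 dpi and 9363 CPM at 30 dpi. At 7 dpi the cluster therefore had more nuclei, at a lower level of the members, than in intact thoracic and lumbar cord and at 30 dpi. What part the other cell type markers have in the result was not tested.

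**Figure D5:**
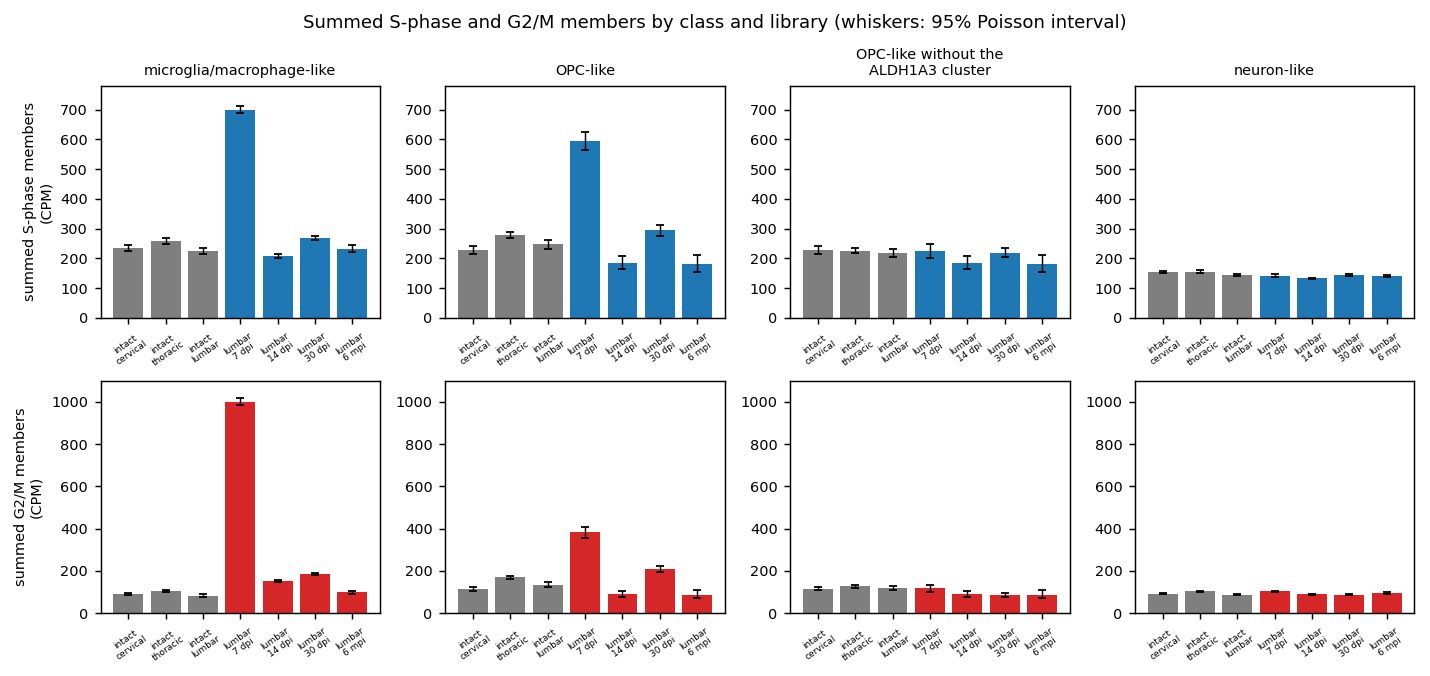
Summed S-phase (upper row) and G2/M (lower row) members in CPM by library, for microglia/macrophage-like, OPC-like, OPC-like without the cluster led by ALDH1A3, and neuron-like nuclei, with exact 95% Poisson intervals. The 7 dpi bars stand above the intact ones (grey) in the first pair of columns, and are within or close to the intact range in the other two.

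Member by member, the OPC-like values are given first for G2/M genes that were low in intact cord, though not near 0 in every intact library. MKI67 was at 0, 5.70 and 1.25 CPM in intact cord, 22.8 CPM at 7 dpi and 1.17, 6.71 and 0 CPM later. TOP2A was at 0.708, 3.8 and 2.08 CPM, then 16.8, 1.17, 9.67 and 1.08 CPM, and CENPF at 1.59, 3.8 and 0.833 CPM, then 20.7, 0.586, 11.5 and 1.08 CPM. NCAPG was at 1.59, 5.96 and 1.25 CPM and then 15.9, 0.586, 9.67 and 1.08 CPM. In all 4 genes intact thoracic cord was the highest intact library, and 7 dpi and then 30 dpi were the highest injured ones. KNL1 was at 2.30, 8.55 and 1.67 CPM, then 13.8, 5.28, 8.32 and 0 CPM, so that only 7 dpi exceeded intact thoracic cord. CCNA2, at 3.90, 5.35 and 4.38 CPM in intact cord and 5.60, 2.35, 2.69 and 9.71 CPM after injury, had a log2 ratio at 7 dpi of 0.36 (-0.76 to 1.42).

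Among S-phase members of OPC-like nuclei, DTL was at 0.708, 5.70 and 7.71 CPM in intact cord and 45.7, 2.93, 8.86 and 2.16 CPM after injury. BRCA1 was at 9.39, 14.2 and 11.5 CPM and then 57.7, 7.04, 19.6 and 8.63 CPM, and BRCA2 at 4.43, 12.4 and 7.08 CPM and then 47.8, 4.69, 14.5 and 0 CPM. These 3 were called at 7 dpi, and their log2 ratios were 2.57 (2.01 to 3.15), 2.33 (1.87 to 2.81) and 2.75 (2.19 to 3.35). Without the cluster led by ALDH1A3 they were at 6.86, 15.4 and 9.72 CPM at 7 dpi, still above the intact libraries of 0.712 to 3.99, 7.56 to 10.7 and 3.93 to 4.45 CPM but below the call.

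Of the OPC-like genes with a standing level, DIAPH3, EZH2 and HELLS changed direction without the cluster, while POLA1 and PRC1 stayed above the intact libraries. DIAPH3 was at 75.3, 85.9 and 88.3 CPM in intact cord and 150, 42.8, 95.3 and 42.1 CPM after injury, and without the cluster it was at 40.0 CPM at 7 dpi and 50.2 CPM at 30 dpi. It was thus below every intact library in all 4 injured ones once the cluster was left out. POLA1 was at 76.3, 77.8 and 80.2 CPM, then 158, 71.0, 100 and 64.7 CPM, with 82.9 CPM at 7 dpi without the cluster. EZH2 was at 60.7, 71.6 and 51.0 CPM, then 89.2, 48.7, 70.4 and 39.9 CPM, and HELLS at 52.4, 64.3 and 59.0 CPM, then 91.8, 30.5, 39.5 and 32.4 CPM. Without the cluster EZH2 and HELLS were at 41.2 and 39.5 CPM at 7 dpi, below the intact libraries. PRC1 was at 17.9, 18.6 and 19 CPM and then 36.6, 17.6, 13.7 and 19.4 CPM, with 28.0 CPM at 7 dpi without the cluster.

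Later OPC-like libraries differed from each other. At 14 dpi CCNB1, with 6 UMIs, was the 1 member called higher (4.29% of all symbols), and MCM2, NUSAP1, DIAPH3 and TPX2 were the 4 called lower (5.11%). At 30 dpi 12 members were called higher (5.89% of all symbols), MYBL2 and 11 G2/M genes, and 0 lower (2.8%). At 6 mpi CCNE2 was called higher (10.2% of all symbols) and 8 members lower (6.83%), from a class total of 926841 UMIs. These calls rest on few UMIs. At 6 mpi 10 of the 35 members had 0 UMIs and gave only an upper bound, and the interval of the log2 ratio lay below 0 for 2 members and above 0 for 0. At 14 dpi 4 members gave only such a bound, and the interval lay below 0 for 3 and above 0 for 2. At 14 dpi 4 members lay above and 20 below all 3 intact libraries (31.9% and 38.1% of all symbols), at 30 dpi 24 and 5 (34.6% and 33.7%), and at 6 mpi 7 and 19 (44.1% and 32.3%). Without the cluster led by ALDH1A3, 3 members were called higher at 14 dpi, 1 at 30 dpi and 2 at 6 mpi, where 4.29%, 5.56% and 10.3% of all symbols were. The share of nuclei with 2 or more members was 3.0%, 4.30% and 4.19% in intact cord, 10.8% (40 of 371; 7.82 to 14.4) at 7 dpi and 2.10%, 3.47% and 2.23% later, and 4.26% (13 of 305) at 7 dpi without the cluster. Unthinned, the class shares were 54.2%, 49.7%, 41.1%, 39.6%, 38.7%, 50.9% and 18.8%, at median depths of 3713.5 to 8692.5 UMIs. The 40 nuclei also differed in markers of other cells from the rest of the class at 7 dpi. The microglia/macrophage list summed to 299.5 against 80.9 CPM with 10 of 10 markers detected, the oligodendrocyte list to 861 against 301 CPM and the OPC list to 13854 against 19855 CPM, and the part of these cells in the share was not tested.

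Calls were also made in oligodendrocyte-like and neuron-like nuclei, where fewer members reached 2-fold with 1 CPM added. In oligodendrocyte-like nuclei CENPF, KIF11 and CDK1 were called higher at 7 dpi (4.01% of all symbols) and HELLS lower (2.51%). HELLS there was at 33.8, 32.7 and 29.3 CPM in intact cord and 11.7, 17.9, 24.0 and 29.9 CPM after injury, and KIF11 at 0.618, 0.762 and 0.881 CPM and then 6.48, 1.46, 1.43 and 0.594 CPM. At 14 dpi 0 members were called higher (3.23%), and at 30 dpi and 6 mpi CENPF alone was (3.22% and 6.82%), with 0 lower at the 3 times (1.55%, 1.45% and 1.75%). Without a fold, 26, 13, 23 and 27 of the 35 members lay above all 3 intact libraries at 7, 14 and 30 dpi and 6 mpi, where 45.7%, 37%, 37.5% and 51.8% of all symbols did. In neuron-like nuclei 19, 9, 10 and 14 did, where 39.6%, 28.8%, 31.6% and 40.7% of all symbols did. At 7 dpi the 26 members of oligodendrocyte-like nuclei were 16 of 19 G2/M and 10 of 16 S-phase members. The 19 of neuron-like nuclei were 13 of 19 G2/M and 6 of 16 S-phase members. With no CPM added, oligodendrocyte-like log2 ratios at 7 dpi ran from -1.33 (HELLS) to 4.56 (MKI67). Neuron-like ones ran from -1.50 (NCAPG) to 3.04 (CDK1). Such ratios can be large at low levels. Neither MKI67 in oligodendrocyte-like nuclei nor CDK1 in neuron-like nuclei was called with 1 CPM added. In neuron-like nuclei 2 members, CENPF and BUB1, were called higher (1.25% of all symbols) and NCAPG lower (0.579%). CENPF was also called there at 14 dpi (0.941%) and 30 dpi (0.917%) and NCAPG lower at 30 dpi (0.673%), while 0 were lower at 14 dpi (0.645%) and 0 either way at 6 mpi (1.62% and 0.659%). CENPF was at 1.40, 2.10 and 2.11 CPM in intact neuron-like nuclei and 5.42, 6.19, 5.62 and 1.81 CPM after injury, and NCAPG at 7.94, 12.6 and 6.63 CPM and then 2.34, 4.58, 2.51 and 8.95 CPM. Oligodendrocyte-like clusters also followed the libraries. At 7 dpi 2344 and 1410 of 3825 nuclei lay in clusters that held 58 and 37 of 3785 in intact lumbar cord. The part of this separation in the sums was not tested. Summed G2/M members of oligodendrocyte-like nuclei were at 52.6 to 57.1 CPM in intact cord and 87.5, 55.8, 64.7 and 68.4 CPM after injury, so that 7 dpi was again the highest library. Those of neuron-like nuclei were at 87.8 to 103 CPM in the intact libraries and 86.4 to 103 CPM in the injured ones, with the ranges overlapping. In astrocyte-like nuclei, 98 at 7 dpi, 20 of the 35 members lay above all 3 intact libraries at that time and 8 below, from few UMIs, where 42.6% and 36.4% of all symbols did. CENPF had the highest log2 ratio, 3.05 (1.00 to 5.02) from 6 and 5 UMIs, and DIAPH3 the lowest, -2.30 (-3.00 to -1.68) from 1026 and 21 UMIs. DIAPH3 was at 116, 105 and 130 CPM in intact cord and 26.5, 61.4, 38.5 and 57.3 CPM after injury, so that the injured libraries lay below all intact ones. Of 54 T cell-like nuclei at 7 dpi, 6 (11.1%; 4.19 to 22.6) held 2 or more members, against 5.26% to 7.20% in intact cord with 18 to 125 nuclei, and the intervals overlapped. Unthinned, 25.9% of the T cell-like nuclei at 7 dpi held 2 or more.

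Cell cycle genes outside the set followed the same split in microglia/macrophage-like nuclei at 7 dpi. Of 37 other S-phase genes 26 were called higher, with a median log2 ratio of 1.39, and of 51 other G2/M genes that passed the filter 47 were, with a median of 2.85, and 0 of either list were lower. Over all symbols 7.24% were higher and 4.74% lower. ATAD2, a chromatin ATPase, was at 61.0, 58.1 and 43.5 CPM in intact cord and 153 CPM at 7 dpi, and FANCI, of the Fanconi repair pathway, at 35.1, 36.9 and 38.5 CPM and 107 CPM. SMC4, a condensin subunit, was at 43.4, 51.0 and 40.7 CPM and 146 CPM, and CIT, the citron kinase of cell separation, at 5.46, 5.12 and 4.64 CPM and 105 CPM. All 4 were lower in the 14 dpi library than in that of 7 dpi, at 69.3, 29.6, 38.9 and 12.6 CPM. ANLN, an actin-binding protein of cell separation, differed in being highest at 6 mpi with 78.1 CPM, above the 64.4 CPM of 7 dpi and the 14.3 to 44.5 CPM of intact cord. WDR76, WDHD1 and NCAPG2, the other genes with most UMIs, were at 56.4, 50.9 and 74.8 CPM at 7 dpi and at most 23.0, 13 and 22.7 CPM in intact cord.

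Genes listed as G1 regulators were mixed. Of 15 genes in this list 6 were called higher at 7 dpi (CCND1, CDK4, RBL1, E2F2, E2F7 and FOXM1) and CCND3 lower, where 7.24% and 4.74% of all symbols were. The list also holds FOXM1 and the MuvB subunits LIN9 and LIN54, which belong to the later switch of the mitotic genes described above. The count of 6 is therefore not one of regulators of the entry into the cycle alone. CCND3, a D-type cyclin, was at 530, 465 and 507 CPM in intact cord and 128, 112, 188 and 382 CPM after injury, while its relative CCND1 was at 17.9, 21.6 and 12.1 CPM and then 31.4, 18.7, 24.1 and 22.5 CPM. These 2 D-type cyclins thus stood on opposite sides of intact cord at 7 dpi (CCND2 was not analysed here), and CCND3 was below it in all 4 injured libraries. RBL1, a relative of the retinoblastoma protein, was at 65.9, 67.1 and 55.8 CPM and 129 CPM at 7 dpi, and E2F7, a repressor of the E2F family, at 3.22, 4.31 and 1.36 CPM and 20.4 CPM. CDK4, the kinase of the D-type cyclins, was at 7.14, 6.91 and 4.50 CPM and 11.1 CPM.

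Of 8 tested genes in the list of cell cycle inhibitors, CDKN2B, CDKN2C and CDKN2D, which block CDK4 and CDK6, were called higher at 7 dpi. MDM2 was called lower, where 7.24% of all symbols were called higher and 4.74% lower. MDM2, the ligase that holds p53 down, was listed beside p53 and is not itself an inhibitor of the cycle. CDKN2B was at 0.700, 1.35 and 1.77 CPM in intact cord and 6.27, 8.17, 12.3 and 16.3 CPM at 7, 14 and 30 dpi and 6 mpi, so that it was higher at each later time, unlike the members. MDM2 was at 230, 224 and 279 CPM in intact cord and 134 CPM at 7 dpi. Of 13 growth factors and receptors for microglia and OPCs 0 were called higher and 2 lower, where 7.24% and 4.74% of all symbols were. IGF1, insulin-like growth factor, was at 64.2, 73.5 and 74.5 CPM and then 36.5, 49.7, 35.7 and 16.1 CPM, and its receptor IGF1R at 21.1, 12.6 and 12.7 CPM and then 5.57, 6.18, 6.70 and 35 CPM.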

How the data were processed

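Nuclei of 7 spinal cord libraries, 1 per group, had been sequenced with 10x Chromium chemistry. The deposited matrices hold raw UMI counts per gene and barcode, which the authors made with Cell Ranger 6.0.0 on Mmul_10 and did not normalize. Of 35432 identifiers, 959 took a symbol from the reference table, giving 28966 symbols. Libraries held 6134 to 12015 barcodes and 45079131 to 150987900 UMIs. Barcodes were kept above 500 genes and 1000 UMIs and below 10% of UMIs from mitochondrial genes and 5% from haemoglobin (67084), and the 5% with the highest simulated-doublet scores in each library (3354) were removed.

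Nuclei were clustered with scanpy 1.11.5 and leidenalg 0.10.2 (2000 variable genes, 30 components, 20 neighbours, resolution 1) under Python 3.11.15, without integration and without 125 cell cycle genes. Clusters were named from marker lists. The first naming rule left the cluster that held most 7 dpi microglia/macrophage-like nuclei and the one led by ALDH1A3 without a name, and it was replaced after the clusters had been seen. In the rule used, a second class counts only with 3 or more detected markers, and leading genes are by fold over nuclei of clusters of other best classes. Of 44 clusters 4 stayed unnamed.

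UMIs were summed per class and library and given as CPM with exact Poisson intervals, and ratios to intact lumbar cord with 95% intervals from the exact binomial split of the summed UMIs. No p-value was computed, since groups had 1 library each. Genes with 20 or more UMIs over the 7 libraries were tested against the call rule, and bounds use a floor of 3 UMIs per library. Shares of nuclei were taken after thinning to 1000 UMIs, with exact Clopper-Pearson intervals. Named members were the 8 G2/M and 6 S-phase genes with the most UMIs in microglia/macrophage-like and in OPC-like nuclei, with others given by ranges, counts and each member not called at 7 dpi. Members printed outside this rule (such as BUB1, CCNB1, CCNE2, MYBL2, MCM3, MCM4 and MCM6 in microglia/macrophage-like nuclei) were added to complete a complex or role after their values were seen. Of each further list, the 4 genes with the most UMIs among those called were named. The 4 promoters printed were chosen after values were seen. The members and lists were chosen with earlier results of these data known. The scripts were tested on simulated data. Alternatives covered thinning depth, the member count, the pseudocount, fold, filter, scaling, doublet removal, resolution, naming and left-out clusters.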

Additional observations from a re-analysis of the deposited data

Results flagged for a closer look

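Barcodes removed as likely doublets, which enter the results above only in the setting with no doublet removal, also held the members. At 7 dpi 47 of 480 removed barcodes (9.79%; 95% exact interval 7.28 to 12.8) had UMIs of 2 or more members after thinning, against 2.89%, 3.63% and 3.33% of removed barcodes in intact cervical, thoracic and lumbar cord. Among the nuclei kept at 7 dpi the share was 8.45%. An unnamed cluster of 33 nuclei, 32 of them from intact thoracic cord, held 7 thoracic nuclei with 5 or more members before thinning and 3 nuclei with 2 or more after it, at a median of 16218 UMIs.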

How the results depend on the processing

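No paired analysis was possible because each group had 1 library, and leaving out a replicate was not possible for the same reason. In microglia/macrophage-like nuclei at 7 dpi the S-phase log2 ratio of 1.64 became 3.38 under the first naming rule, 0.72 without the cluster led by MKI67, 1.97 without the member with the most UMIs and 1.55 when set against the intact mean. The G2/M ratio of 3.59 became 5.84, 1.72, 3.37 and 3.43 in the same order. The share of nuclei, 16.7%, became 60.6% under the first naming rule, 9.69% without that cluster, 24.4% thinned to 2000 UMIs, 11.8% with 3 or more members and 9.02% with G2/M members alone. BUB1B turned to -0.021 and CCNA2 to -0.16 without that cluster, and the S-phase ratio at 6 mpi to -0.11, -0.037 and -0.18 without the top member, against the intact mean and with size factors. The first naming rule leaves the cluster with 3051 of the 3471 nuclei at 7 dpi unnamed, so its values cover a small part of them.

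OPC-like results at 7 dpi depended on the cluster led by ALDH1A3, which the first naming rule leaves unnamed. With no doublet removal, no cluster was led by ALDH1A3. Without doublet removal, under the first naming rule and without that cluster, the S-phase ratio of 1.26 became 0.048, 0.034 and 0.034, the G2/M ratio of 1.5 became -0.043, -0.0095 and -0.0095, the 22 members called (8.54% of all symbols) became 3, 3 and 3 (5.97%, 5.86% and 5.86%), and the share of 10.8% became 4.03%, 4.26% and 4.26%. Without the top member the ratios were 1.38 and 2.30, and with size factors 1.11 and 1.35. The share was 16.9% thinned to 2000 UMIs, 7.28% with 3 or more members and 4.58% with G2/M members alone. Under the same 3 settings MCM6 turned to -0.48, -0.47 and -0.47, HELLS to -0.54, -0.53 and -0.53, EZH2 to -0.23, -0.24 and -0.24, and DIAPH3 to -1.02, -1.01 and -1.01. MCM4 turned to -0.069 under the latter pair and MYBL2 to -1.14 without doublet removal. At 30 dpi the S-phase ratio became -0.044, -0.0047 and -0.0047 and the G2/M ratio -0.45 in each. The causes were not tested. With 1 animal per time, depth and animal cannot be told apart from time.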

Other observations

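The share of nuclei with a UMI was also taken for single members. After thinning, DIAPH3 had a UMI in 6.11% of microglia/macrophage-like nuclei at 7 dpi, DTL in 4.49%, MKI67 in 3.46% and POLA1 in 9.08%, and before thinning in 10.5%, 9.97%, 8.38% and 25.5%. In the 3 intact libraries the thinned shares were 0.121% to 0.238% for DIAPH3, 0.121% to 0.278% for DTL, 0% to 0.119% for MKI67 and 6.35% to 7.85% for POLA1. In neuron-like nuclei at 7 dpi they were 0.744%, 0.0827%, 0% and 3.89%, at a median depth of 26084 UMIs against 4202 in microglia/macrophage-like nuclei.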
